A study of Mus musculus with 8 samples.

Results

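The small leucine-rich proteoglycans are secreted core proteins built of leucine-rich repeats, many of which carry chondroitin, dermatan or keratan sulfate chains. They coat collagen fibrils and help to set their thickness and spacing, and several of them bind TGF-beta and other growth factors. In the lung, fibroblasts are a main source of them. The 10 genes described here, Ogn, Aspn, Omd, Ecm2, Dcn, Lum, Bgn, Fmod, Prelp and Podn, were taken by symbol from a table of 52110 rows with a gene symbol. All 10 were found on a single row each, and all 10 were among the 17360 genes that passed the filter on low counts. Omd reached the filter through the untreated libraries and 1 library at 100 ng/ml, since it had 15 and 20 reads untreated and at most 3 in every library given 10 or 30 ng/ml.

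RNA was sequenced from primary fibroblasts of wild-type mouse lung, kept in medium with serum. They were left untreated or were given TWEAK, a TNF-family cytokine, at 10, 30 or 100 ng/ml, and the time point was 48 hours. There were 8 libraries, 2 in each of 4 groups. The age and sex of the mice are not in the labels, and neither is the origin of the 2 repeats (1 culture or several). The p-values below therefore set each group difference against the spread between such repeats, estimated over all 4 groups. That spread may be only technical.

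Total counts ran from 37345575 to 50896445 per library, and a gene with 3 reads stood at 0.0599 to 0.0801 CPM (counts per 1e+06 reads, TMM-scaled). The 10 markers of fibroblasts were all tested, and their summed level was between 20470 and 20860 CPM in untreated cells, between 9619 and 9940 CPM at 10 ng/ml, between 10710 and 12080 CPM at 30 ng/ml and between 18160 and 19130 CPM at 100 ng/ml. At 10 ng/ml 8 of these markers fell, Col1a1, Col3a1 and Tcf21 among them, and 2 rose, namely Pdgfra and Vim. Over all tested genes 14.2% were called lower and 15.0% higher at that dose. The 7 endothelial markers summed to 5.83 to 7.69 CPM in every group, with Emcn at 0 counts in every library, but single members moved: at 10 ng/ml Cdh5 rose from 0.180 and 0.120 CPM to 4.28 and 3.81 CPM and Tek fell from 4.50 and 4.98 CPM to 1.23 and 1.68 CPM (edgeR adjusted p = 4.07e-05 and 0.00146). Cdh5 passed the filter on low counts only through treated libraries, where it was higher. The 8 epithelial markers summed to 0.899 to 1.02 CPM in untreated cells and to 1.16 to 2.93 CPM in the treated groups, with Epcam at 0 counts. Krt18 among them stood at 0.480 and 0.462 CPM untreated and at 1.34 and 0.982 CPM at 10 ng/ml (edgeR adjusted p = 0.0659). The 8 cartilage and bone markers summed to 14.8 to 16.5 CPM untreated and to 30.9 to 35.6 CPM at 10 ng/ml, nearly all of it Sox9, which rose from 15.3 and 13.9 CPM to 30.4 and 34.6 CPM (edgeR adjusted p = 0.000626), while Acan and Ibsp had 0 counts. The 7 lymphocyte markers summed to at most 0.683 CPM in any library, with Cd3e, Cd3d and Cd8a at 0 counts. The 8 macrophage markers summed to between 11.7 and 15.4 CPM in untreated cells and to between 22.01 and 28.2 CPM in the treated groups. Most of this was Lyz2, at 11.1 and 8.01 CPM untreated and 12.7 and 15.8 CPM at 10 ng/ml. Cd68 went from 2.02 and 2.11 CPM to 8.58 and 9.10 CPM. Csf1r stood at 1.84 and 1.26 CPM untreated and 1.82 and 1.52 CPM at 10 ng/ml. Ptprc stood at 0.0599 and 0 CPM untreated and at 0 CPM at 10 ng/ml. The 6 mesothelial markers summed to between 12.9 and 13.4 CPM in untreated cells and to between 4.36 and 6.39 CPM at 10 and 30 ng/ml. The smooth muscle and pericyte markers summed to between 117.9 and 136.0 CPM in untreated cells and to between 131.1 and 178.6 CPM in the treated groups. These 7 markers moved both ways at 10 ng/ml, with 3 called higher and 3 lower. Des stood at 35.5 and 27.6 CPM untreated and at 118.6 and 111 CPM at 10 ng/ml. Myh11 stood at 30.5 and 23.2 CPM untreated and at 13.4 and 12.5 CPM at 10 ng/ml. The part of these shifts in the results that follow was not tested. In bulk RNA, fewer cells of a type and less RNA per cell cannot be told apart.

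In untreated fibroblasts the family spanned a wide range of abundance, from biglycan at the top to osteomodulin at the bottom. Levels of different genes were compared per kilobase of the principal annotated transcript. On that scale Bgn stood at 2099 ± 87.1 CPM per kb (SD, n = 2), followed by Dcn at 644 ± 32.2, Prelp at 322 ± 2.26 and Ogn at 227 ± 4.56 CPM per kb. Podn followed at 75.1 ± 12.3 and Fmod at 49.8 ± 0.948 CPM per kb, then Aspn at 7.92 ± 0.182, Lum at 6.52 ± 0.390, Ecm2 at 1.41 ± 0.0280 and Omd at 0.156 ± 0.0320 CPM per kb. No 2 neighbours in this order overlapped between their libraries. Over the merged exons of all annotated transcripts, Dcn came after Ogn, at 194 ± 9.70 against 227 ± 4.56 CPM per kb, so that the place of Dcn depends on the length used. Without a correction for length, Bgn ranked 6 among all 52110 rows by mean CPM in untreated cells, Prelp ranked 68 and Dcn 73.

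At 10 ng/ml, 7 of the 10 genes fell and 1 rose, by edgeR with Benjamini-Hochberg adjustment over all tested genes and a threshold of 0.05. Of all tested genes 14.2% were called lower and 15.0% higher in this comparison. The genes that fell were Ogn, Aspn, Fmod, Podn, Lum, Prelp and Ecm2, and Dcn rose. Bgn and Omd did not pass. The median log2 change of the 10 genes was -2.47, against 0.0063 over all tested genes, and single values ran from -5.11 to 0.41. In 8 genes both treated libraries lay below both untreated ones, and in Dcn both lay above. The share of all tested genes separated in this way was not counted. Omd, which passed the filter through libraries where it was higher, is included in the 8 and in the median.

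**Figure D1:**
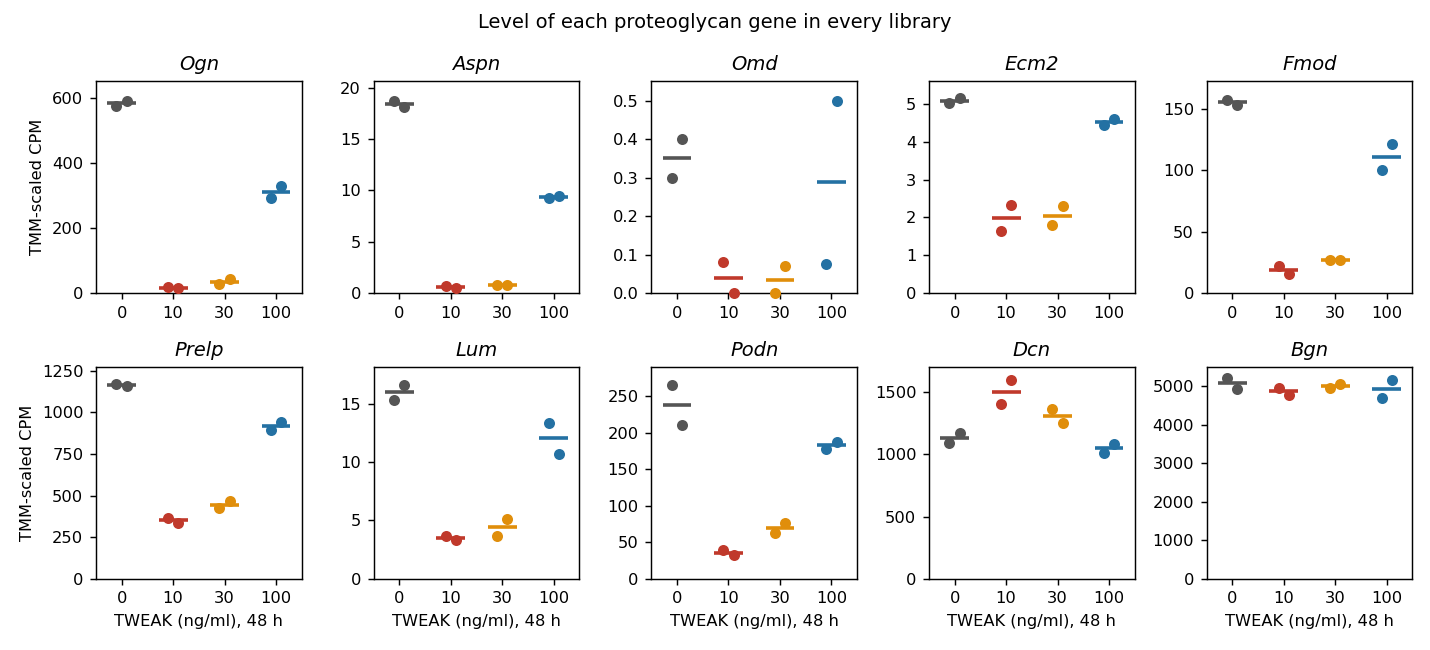
TMM-scaled CPM (vertical axes, linear and starting at 0) of each gene in each of the 8 libraries by labelled TWEAK dose in ng/ml, points being libraries and bars group means of 2. At 10 and 30 ng/ml, 8 genes lie below their untreated libraries, Dcn lies above and Bgn overlaps, while the libraries labelled 100 ng/ml lie between or near the untreated level.

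The 4 genes of the chromosome 13 cluster, Ecm2, Aspn, Omd and Ogn, lie on the plus strand within 119.7 kb, in that order. On mm10, in GENCODE M21, Ecm2 runs from 49504810 to 49532789, Aspn from 49544443 to 49567565, Omd from 49582462 to 49592822 and Ogn from 49608046 to 49624501. All 4 lie inside Cenpp, a centromere protein gene on the opposite strand that runs from 49464023 to 49652785. Aspn shares 7 bases of exon with Cenpp, 0.3% of its exon length, and the other 3 share none.

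Ogn encodes osteoglycin, also called mimecan, a keratan sulfate proteoglycan that affects collagen fibril thickness. It was read at 575 and 592 CPM in the untreated libraries and at 19.1 and 14.7 CPM at 10 ng/ml. It stood at 27.6 and 42.0 CPM at 30 ng/ml and at 291 and 330 CPM in the libraries labelled 100 ng/ml. No group overlapped another: the level was highest untreated, intermediate at 100 ng/ml and lowest at 10 ng/ml. The log2 change was -5.11 ± 0.23 at 10 ng/ml (SE, edgeR adjusted p = 5.05e-06) and -4.07 ± 0.21 at 30 ng/ml (edgeR adjusted p = 1.62e-05), which leaves 2.89% and 5.97% of the untreated level.

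Aspn encodes asporin, a close relative of decorin with an aspartate-rich start and no glycosaminoglycan chain, which binds collagen and TGF-beta. Asporin reads stood at 18.7 and 18.1 CPM untreated, at 0.721 and 0.514 CPM at 10 ng/ml and at 0.749 and 0.827 CPM at 30 ng/ml, from 27, 22, 34 and 35 reads. At 100 ng/ml it stood at 9.23 and 9.46 CPM. The treated libraries were all below the untreated ones, with those at 10 and 30 ng/ml far lower than those labelled 100 ng/ml. The log2 change was -4.90 ± 0.20 at 10 ng/ml (edgeR adjusted p = 3.91e-06) and -4.55 ± 0.19 at 30 ng/ml (edgeR adjusted p = 6.97e-06).

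Omd encodes osteomodulin, a keratan sulfate proteoglycan known from bone, and was near the limit of detection. It had 15 and 20 reads untreated, 3 and 0 at 10 ng/ml, 0 and 3 at 30 ng/ml, and 3 and 20 at 100 ng/ml. The scaled read rate over the 2 libraries at 10 ng/ml was 0.107 times that of untreated cells. Its 95% interval, from 0.0210 to 0.339, holds counting error only. The 95% interval of the edgeR fit, which takes in the spread between repeats, ran from 0.0102 to 1.33 times untreated. The change did not pass the edgeR test at 10 ng/ml (adjusted p = 0.170) or 30 ng/ml (adjusted p = 0.176).

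Ecm2, an extracellular matrix protein with leucine-rich repeats, was read at 5.01 and 5.16 CPM untreated and at 1.63 and 2.32 CPM at 10 ng/ml. It stood at 1.81 and 2.29 CPM at 30 ng/ml and at 4.45 and 4.604 CPM at 100 ng/ml. Its libraries at 10 and 30 ng/ml overlapped each other and lay below all others. Its fall was the smallest of those called at 10 ng/ml, a log2 change of -1.36 ± 0.23 (edgeR adjusted p = 0.00327), and it was -1.31 ± 0.23 at 30 ng/ml (edgeR adjusted p = 0.00477).

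Of the 7 neighbours of the cluster that were listed, 6 were tested and none fell at 10 or 30 ng/ml. Of all tested genes 14.2% were called lower at 10 ng/ml and 10.7% at 30 ng/ml. With 6 genes, a count of 0 lies near those shares. Iars, an isoleucyl-tRNA synthetase, rose by 0.70 ± 0.08 on the log2 scale at 10 ng/ml (edgeR adjusted p = 0.000332). Cenpp, the gene that holds the cluster, had 6 and 25 reads untreated and 33 and 30 at 10 ng/ml, and its change did not pass (edgeR adjusted p = 0.165). Nol8, Bicd2, Fgd3 and Ippk had log2 changes of 0.37, 0.31, -0.14 and 0.0036, and none passed the test. Susd3 had at most 7 reads in a library and was not tested.

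**Figure D2:**
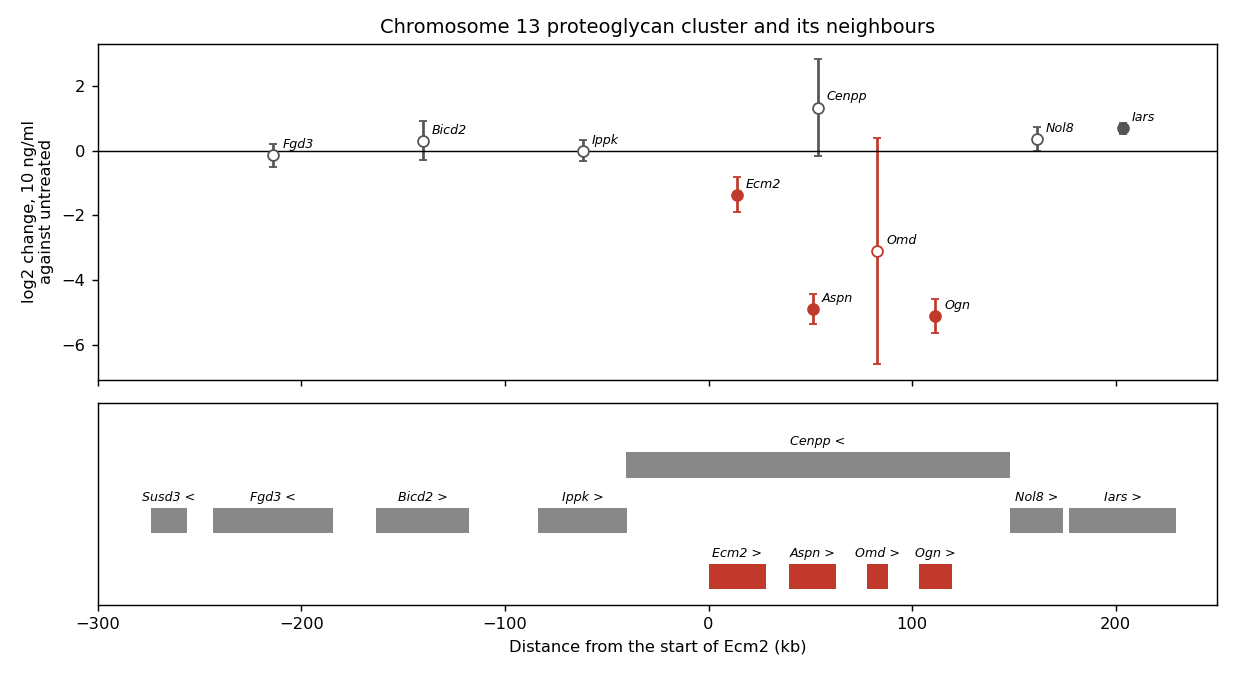
Log2 change at 10 ng/ml against untreated with its 95% interval (top, points at gene midpoints, filled where the adjusted p was below 0.05) and gene extents (bottom) by distance in kb from the start of Ecm2, with strand shown as > or <. Ecm2, Aspn and Ogn, in red, fell, Omd was not called, and of the tested neighbours in grey only Iars was called, and it was higher.

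Promoter windows of 250 bases before to 50 bases after the start site were taken from RefSeq (GRCm38.p6) and were matched for 8 of the 10 genes, leaving out Dcn and Lum. The windows of Ogn and Aspn are shown because these genes fell furthest, and that of Bgn because it did not pass at any dose. Capitals mark TATAAA on either strand, and in Ogn 2 such matches overlap.
Ogn, chr13:49607765-49608064, plus strand: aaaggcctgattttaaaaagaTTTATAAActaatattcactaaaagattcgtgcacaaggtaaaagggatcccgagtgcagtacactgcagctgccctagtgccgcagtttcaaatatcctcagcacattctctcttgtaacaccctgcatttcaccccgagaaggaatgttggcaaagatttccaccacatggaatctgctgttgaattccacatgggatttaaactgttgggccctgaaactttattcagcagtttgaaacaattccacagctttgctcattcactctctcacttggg
Aspn, chr13:49544193-49544492, plus strand: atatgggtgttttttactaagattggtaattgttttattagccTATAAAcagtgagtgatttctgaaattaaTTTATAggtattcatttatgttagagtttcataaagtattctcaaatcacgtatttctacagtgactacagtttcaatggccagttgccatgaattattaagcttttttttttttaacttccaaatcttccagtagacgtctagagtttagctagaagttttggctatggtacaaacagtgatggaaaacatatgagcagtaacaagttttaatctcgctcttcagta
Bgn, chrX:73483351-73483650, plus strand: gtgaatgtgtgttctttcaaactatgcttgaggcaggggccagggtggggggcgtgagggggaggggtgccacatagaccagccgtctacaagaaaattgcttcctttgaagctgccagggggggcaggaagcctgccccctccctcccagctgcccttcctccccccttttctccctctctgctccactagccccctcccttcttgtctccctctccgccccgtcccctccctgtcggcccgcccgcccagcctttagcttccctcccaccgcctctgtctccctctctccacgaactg

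In base composition, the Aspn window held 31.0% G and C, Omd 37.7%, Ecm2 41.0% and Ogn 42.3%, all below the lower quartile of 46.0% over the 32544 windows of the table. The other windows were at or above that quartile, those of genes that fell included: Fmod lay at percentile 42.7 of all windows, Prelp held 55.3% and the 2 windows of Podn 63.00% and 77.00%, beside 63.7% for Bgn. The TATAAA matches of Ogn ended 222 bases before the start site and those of Aspn at 202 and 173 bases before it, and 13.6% of all windows held such a match. An NF-kB motif, searched by its consensus on both strands and present in 4.53% of windows, was in none of the members' windows, and neither was AP-1 (TGANTCA, either strand), present in 7.79%. A CArG box, searched by its consensus and present in 1.64% of windows, was in none of them either. The E-box (CANNTG), present in 72.3% of windows, had 4 matches in Ogn, 2 in Aspn, 0 in Ecm2 and Omd, 1 each in Bgn, Fmod and Prelp, and 3 and 1 in the 2 windows of Podn. These matches are descriptions of letters in the windows shown.

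Outside the cluster, Fmod and Prelp lie 115.8 kb apart on chromosome 1, Fmod from 134037254 to 134048277 and Prelp from 133910304 to 133921414, and both fell. Fmod encodes fibromodulin, a keratan sulfate proteoglycan that binds collagen fibrils and lysyl oxidase. Its level was 157 and 153 CPM untreated, 22.5 and 15.9 CPM at 10 ng/ml, 26.6 and 26.8 CPM at 30 ng/ml and 100.2 and 122 CPM at 100 ng/ml. The groups formed the same order as for Ogn without overlap. The log2 change was -3.02 ± 0.17 at 10 ng/ml (edgeR adjusted p = 1.32e-05) and -2.54 ± 0.16 at 30 ng/ml (edgeR adjusted p = 3.95e-05).

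Prelp encodes a protein with an arginine- and proline-rich end that binds heparan sulfate and collagen. Prelp stood at 1171 and 1160 CPM untreated, 363 and 337 CPM at 10 ng/ml, 423 and 468 CPM at 30 ng/ml and 896 and 940 CPM at 100 ng/ml. No group overlapped another here either. Its log2 change was -1.74 ± 0.07 at 10 ng/ml (edgeR adjusted p = 3.86e-06) and -1.39 ± 0.07 at 30 ng/ml (edgeR adjusted p = 1.17e-05). Prelp shares 350 bases of exon, 9.7% of its exon length, with the antisense gene Gm15851, and without known strand use in counting, reads of the pair cannot be told apart there.

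Lum and Dcn are neighbours on chromosome 10, 47.0 kb apart, and moved in opposite directions at 10 ng/ml. Lum, from 97565128 to 97572703, encodes lumican, a keratan sulfate proteoglycan known for the transparency of the cornea. Levels of Lum were 15.3 and 16.6 CPM untreated, 3.63 and 3.30 CPM at 10 ng/ml, 3.68 and 5.15 CPM at 30 ng/ml and 13.3 and 10.7 CPM at 100 ng/ml. All treated libraries lay below the untreated ones. The log2 change was -2.20 ± 0.20 at 10 ng/ml (edgeR adjusted p = 0.000131) and -1.85 ± 0.20 at 30 ng/ml (edgeR adjusted p = 0.000396).

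Dcn, from 97479609 to 97518143, encodes decorin, which binds collagen and TGF-beta and carries a chondroitin or dermatan sulfate chain. Levels of Dcn were 1092 and 1172 CPM untreated, 1405 and 1596 CPM at 10 ng/ml, 1369 and 1256 CPM at 30 ng/ml and 1013 and 1087 CPM at 100 ng/ml. Both libraries at 10 and at 30 ng/ml were above both untreated ones. The rise was small, a log2 change of 0.41 ± 0.08 at 10 ng/ml (edgeR adjusted p = 0.00567), which is 1.33 times untreated with a 95% interval from 1.17 to 1.501. At 30 ng/ml it was 0.21 ± 0.08 and did not pass (edgeR adjusted p = 0.0887).

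Bgn, on chromosome X from 73483602 to 73495933, encodes biglycan, the nearest relative of decorin and a known ligand of the receptors encoded by Tlr2 and Tlr4. Bgn stood at 5227 and 4929 CPM untreated, 4973 and 4774 CPM at 10 ng/ml, 4971 and 5068 CPM at 30 ng/ml and 4710 and 5171 CPM at 100 ng/ml. The 4 groups overlapped. The log2 change was -0.06 at 10 ng/ml with a 95% interval from -0.18 to 0.06, -0.02 at 30 ng/ml with one from -0.14 to 0.10, and -0.04 at 100 ng/ml with one from -0.16 to 0.08. A change of Bgn beyond those bounds lies outside the intervals, but a missed threshold does not show that the level was the same.

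Podn, on chromosome 4 from 108014791 to 108096445, encodes podocan, a collagen-binding member first described in kidney. Podn stood at 265 and 210 CPM untreated, 39.0 and 32.6 CPM at 10 ng/ml, 62.7 and 76.2 CPM at 30 ng/ml and 178 and 188 CPM at 100 ng/ml. The groups did not overlap, and the untreated libraries differed most from each other. The log2 change was -2.73 ± 0.15 at 10 ng/ml (edgeR adjusted p = 1.32e-05) and -1.78 ± 0.15 at 30 ng/ml (edgeR adjusted p = 0.00011).

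At 30 ng/ml, 7 of the 10 genes were called lower and 0 higher by edgeR, against 10.7% and 12.6% of all tested genes. The 7 were those called lower at 10 ng/ml. The median log2 change of the 10, Omd included, was -1.82, against 0.0059 over all tested genes. The comparisons at 10, 30 and 100 ng/ml share the untreated libraries. Between 30 and 10 ng/ml edgeR called 0 of the 10 and 0% of all tested genes. At an unadjusted p below 0.05 there were 5 of the 10, a rule for which the share of all tested genes was not counted. DESeq2 called 3 of the 10, beside 127 calls over all genes, and limma-voom called 0 of the 10. Ogn had a log2 difference of 1.04 ± 0.20 (edgeR adjusted p = 0.286), Podn of 0.96 ± 0.14 (edgeR adjusted p = 0.213) and Prelp of 0.35 ± 0.07 (edgeR adjusted p = 0.286), each higher at 30 ng/ml, and these are the 3 genes DESeq2 called. Over the alternatives, the adjusted p ran from 1.77e-07 to 0.721 for Ogn, from 1.18e-08 to 0.433 for Podn and from 0.01 to 0.757 for Prelp, and Ogn was also called without TWEAK30 replicate 1 (adjusted p = 0.0271).

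**Figure D3:**
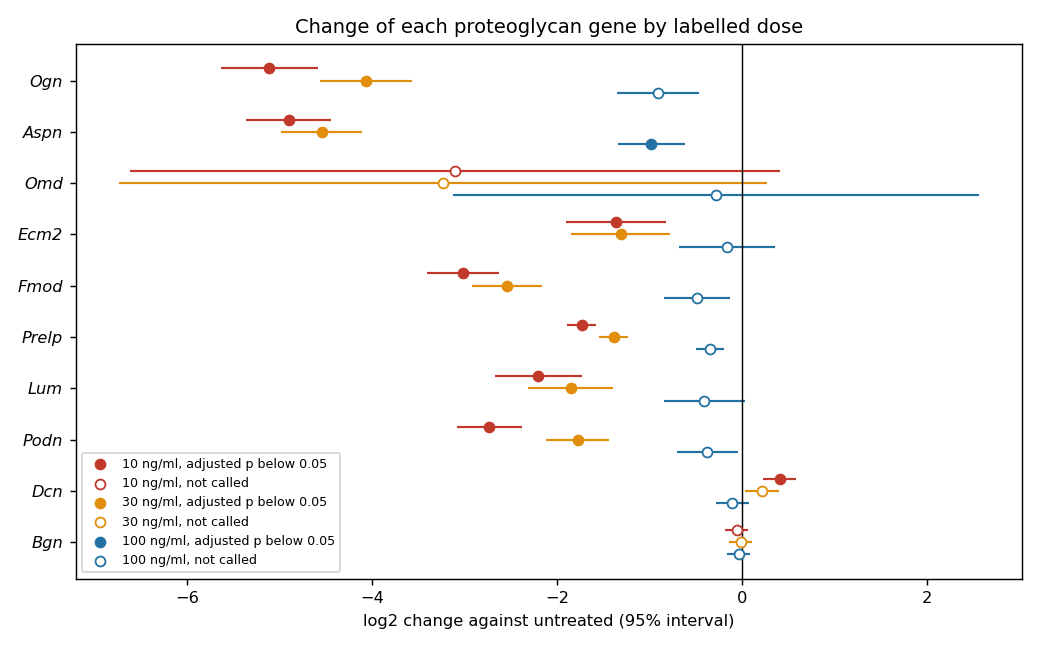
Log2 change against untreated (horizontal axis) with its 95% interval for each gene at 10, 30 and 100 ng/ml, filled points marking an adjusted p below 0.05. Ogn and Aspn stand furthest left at 10 and 30 ng/ml, Dcn is the gene to the right of 0 at 10 ng/ml, Bgn lies at 0, and the intervals of Omd are the widest.

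The libraries labelled 100 ng/ml lay closer to the untreated ones than those labelled 10 or 30 ng/ml did: edgeR called 194 genes against untreated at 100 ng/ml, 4041 at 30 ng/ml and 5075 at 10 ng/ml. The size of the response thus ran against the order of the labelled doses. The groups were used as labelled, and whether the labels give the true order of doses was not tested, so that values at 100 ng/ml describe the libraries with that label. In them, 1 of the 10 genes was called, Aspn, which fell by 0.98 on the log2 scale (SE 0.16, edgeR adjusted p = 0.0312) to 50.7% of the untreated level. Of all tested genes 0.305% were called lower and 0.812% higher. The call on Aspn was lost without untreated replicate 1 (edgeR adjusted p = 0.182), untreated replicate 2 (0.158), TWEAK100 replicate 1 (0.178) or TWEAK100 replicate 2 (0.156), and with the replicate block (0.0703), while its log2 change stayed between -1.01 and -0.96 over all alternatives. All 10 fitted changes were below 0, from -0.98 to -0.04, with a median of -0.36 against 0.00195 over all tested genes. In 8 genes both libraries lay below both untreated ones, and the share of all tested genes that did so was not counted. Ogn had a log2 change of -0.91 ± 0.19 (edgeR adjusted p = 0.0833), Prelp of -0.34 ± 0.07 (edgeR adjusted p = 0.0643), Fmod of -0.49 ± 0.15 (edgeR adjusted p = 0.248), Lum of -0.41 ± 0.19 (edgeR adjusted p = 0.463) and Podn of -0.38 ± 0.14 (edgeR adjusted p = 0.348). At an unadjusted p below 0.05 there were 5 of the 10, and the share of all tested genes under that rule was not counted. DESeq2 called Aspn, Ogn, Prelp and Fmod, beside 592 calls over all genes. By limma-voom Aspn, Ogn and Prelp were called, and its share of all genes is not given here.

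The differences between the highest labelled dose and the lower ones were tested directly. Against 10 ng/ml, 7 of the 10 genes were higher at 100 ng/ml and 1, Dcn, was lower, while 10.7% of all tested genes were called higher and 11.2% lower. Against 30 ng/ml the counts were also 7 higher and 1 lower, beside 7.15% and 8.04% of all tested genes. The 7 higher genes were the same in both, namely Ogn, Aspn, Fmod, Podn, Lum, Prelp and Ecm2. Ogn was 18.4 times and Aspn 15.1 times as high at 100 as at 10 ng/ml, log2 differences of 4.20 ± 0.22 (edgeR adjusted p = 3.57e-05) and 3.92 ± 0.19 (edgeR adjusted p = 3.09e-05). Dcn was at 70.0% of its level at 10 ng/ml (edgeR adjusted p = 0.00253) and at 80.0% of its level at 30 ng/ml (edgeR adjusted p = 0.0282). Against 30 ng/ml, the call on Dcn was lost without TWEAK30 replicate 1 (edgeR adjusted p = 0.1535), TWEAK100 replicate 1 (0.152) or TWEAK100 replicate 2 (0.0598). That on Ecm2, a log2 difference of 1.14 ± 0.23 (edgeR adjusted p = 0.014), was lost without the same libraries (0.0954, 0.0554 and 0.0632).

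Ratios within a library do not depend on how libraries are scaled. Reads of Ogn were 11.01% and 12.0% of those of Bgn in the untreated libraries, 0.384% and 0.308% at 10 ng/ml, 0.556% and 0.829% at 30 ng/ml and 6.19% and 6.37% at 100 ng/ml. The same ratio for Dcn was 20.9% and 23.8% untreated, 28.2% and 33.4% at 10 ng/ml, 27.5% and 24.8% at 30 ng/ml and 21.5% and 21.02% at 100 ng/ml. Ogn and Dcn therefore changed unequally with Bgn, Ogn downward and Dcn upward at 10 ng/ml without overlap between groups.

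The make-up of the 10 transcripts shifted towards biglycan and decorin at 10 and 30 ng/ml. By CPM per kb of the principal transcript, Bgn made up 62.1% and 60.2% of their sum in the untreated libraries and 68.9% and 65.8% at 10 ng/ml, and Dcn 17.9% and 19.7% against 26.8% and 30.3%. Prelp went from 9.31% and 9.47% to 3.37% and 3.11%, and Ogn from 6.44% and 6.81% to 0.249% and 0.191%. The sum itself was 3480 and 3388 CPM per kb untreated, 2985 and 2998 at 10 ng/ml, 2992 and 2991 at 30 ng/ml and 2984 and 3253 at 100 ng/ml. The treated libraries all had a lower sum than the untreated ones. These shares depend on the length used. Over merged exons the sum was 1717 and 1672 CPM per kb untreated and 1182 and 1169 CPM per kb at 10 ng/ml, a larger fall. Ogn then made up 13.1% and 13.8% of the untreated sum, and Prelp 18.9% and 19.2%, above Dcn at 10.9% and 12.01%. At 10 ng/ml Bgn made up 68.98% and 66.9% on that scale, Dcn 20.4% and 23.4%, Prelp 8.51% and 7.97% and Ogn 0.629% and 0.490%, so that the shares moved in the same directions with either length.

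**Figure D4:**
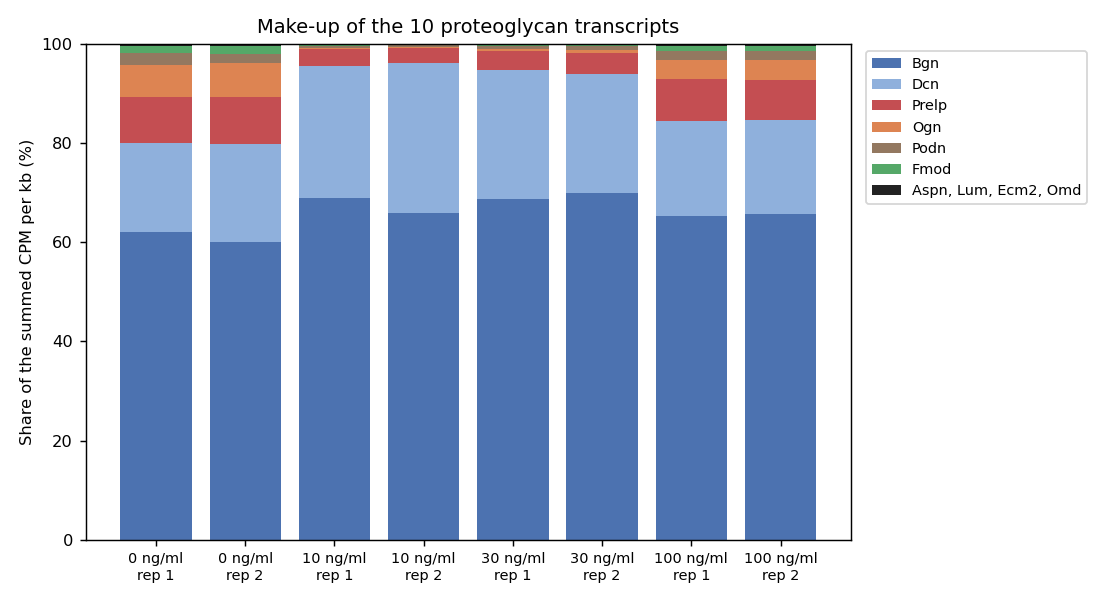
Share in percent (vertical axis) of the summed CPM per kb of the 10 genes taken by each gene in each of the 8 libraries (bars), by labelled dose, with lengths of the principal transcript. Bgn and Dcn fill the largest part of every bar, and Prelp, Ogn, Podn and Fmod are narrower at 10 and 30 ng/ml than in the untreated libraries and those labelled 100 ng/ml.

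Likeness of profile over the 8 libraries was measured by the root-mean-square difference of log2 changes from the untreated mean, after adding 0.5 CPM. The genes most like Ogn were St8sia2 (difference of 0.29), Lrp4 (0.34), Clec3b (0.39), Ces1g (0.41) and Gucy1a3 (0.47), among 10544 genes searched. For Aspn they were Gucy1a3 (0.28), Selenbp1 (0.30), Lrp4 (0.33), Sfrp2 (0.40) and Clec3b (0.41). Aspn stood at 0.514 to 0.827 CPM at 10 and 30 ng/ml, so the added 0.5 CPM makes its fall smaller here than by edgeR. Of the proteoglycan genes, Aspn and Fmod were among the 50 genes nearest to Ogn, and Ogn and Fmod among the 50 nearest to Aspn. Ecm2 and Omd were not searched, since their mean level was below the 5 CPM needed.

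Of 8 other small leucine-rich proteoglycan genes, 6 were tested. At 10 ng/ml 1 of them fell and 0 rose, while 14.2% of all tested genes were called lower and 15.0% higher. With 6 genes, these counts lie near those shares. The gene that fell was Nyx, which encodes nyctalopin of the retina. It had 2.72 ± 0.133 CPM untreated and 1.03 ± 0.361 CPM treated, a log2 change of -1.41 ± 0.37 (edgeR adjusted p = 0.0233). Tsku, which encodes the secreted Wnt and BMP modulator tsukushi, stood at 36.1 ± 4.77 CPM untreated and 48.5 ± 12.98 CPM at 10 ng/ml (edgeR adjusted p = 0.145), and at 30 ng/ml it rose by 0.70 on the log2 scale (edgeR adjusted p = 0.0365). Chadl and Podnl1 had log2 changes of -0.84 and -0.34 at 10 ng/ml and did not pass. Epyc had 11 and 5 reads in the untreated libraries and at most 3 elsewhere and was not tested, and Kera had 0 counts in all libraries.

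Other proteoglycan core proteins moved both ways. Of 28 genes listed, which included the hyaluronan receptor Cd44 and link proteins, 21 were tested. At 10 ng/ml 6 rose and 6 fell, beside 15.0% and 14.2% of all tested genes, with a median log2 change of -0.03. Gpc1, a heparan sulfate proteoglycan anchored in the membrane, rose, with 105 ± 4.98 CPM untreated and 616 ± 8.16 CPM treated, a log2 change of 2.56 ± 0.07 (edgeR adjusted p = 1.8e-06). Cd44 rose by 2.45 ± 0.20 and Sdc3, a syndecan, by 1.06 ± 0.07, while Tgfbr3, the betaglycan co-receptor of TGF-beta, fell from 345 ± 10.5 to 149 ± 1.58 CPM. At 100 ng/ml 1 of the 21 was called, Gpc1, which rose by 0.78 on the log2 scale (edgeR adjusted p = 0.00293). Over all tested genes 0.812% were called higher and 0.305% lower at that dose.

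The enzymes that build the sugar chains also split. Of 27 genes for the linker and for chondroitin and dermatan sulfate, 26 were tested. At 10 ng/ml 7 rose and 9 fell, beside 15.0% and 14.2% of all tested genes, with a median log2 change of -0.02. Xylt1, one of the xylosyltransferases that attach the first sugar of a chain, rose, with 6.39 ± 0.0481 CPM untreated and 82.0 ± 7.86 CPM treated, a log2 change of 3.68 ± 0.12 (edgeR adjusted p = 2.39e-06), and it was also called at 100 ng/ml, at 15.2 ± 1.03 CPM (edgeR adjusted p = 0.00297). Papss2, which makes the sulfate donor, rose by 1.80 ± 0.11 and Ust, a uronyl sulfotransferase, by 1.17 ± 0.11 on the log2 scale. Csgalnact1, which begins a chondroitin chain, fell, with 72.5 ± 4.27 CPM untreated and 13.9 ± 0.550 CPM treated, a log2 change of -2.38 ± 0.17 (edgeR adjusted p = 3.28e-05). Xylt2, the other xylosyltransferase and stood at 30.2 ± 1.03 CPM untreated and 28.5 ± 0.393 CPM at 10 ng/ml and did not pass (edgeR adjusted p = 0.562).

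Of 11 genes for keratan sulfate, 8 were tested. At 10 ng/ml 2 rose and 3 fell, beside 15.0% and 14.2% of all tested genes. B4galt1, a galactosyltransferase, fell from 539 ± 0.991 to 265 ± 8.39 CPM, and B4galt4, another, fell by 0.81 on the log2 scale (edgeR adjusted p = 0.00719). Chst2, which sulfates N-acetylglucosamine, rose from 10.7 ± 2.23 to 42.2 ± 4.10 CPM, and St3gal1, a sialyltransferase, rose by 0.78 ± 0.08 (edgeR adjusted p = 0.000177).

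The collagen chains that these proteoglycans coat mostly fell. Of 11 chains, all tested, 9 fell and 2 rose at 10 ng/ml, beside 14.2% and 15.0% of all tested genes. Their median log2 change was -0.75. Col3a1 fell, with 8913 ± 59.7 CPM untreated and 1911 ± 35.3 CPM treated, a log2 change of -2.22 ± 0.13 (edgeR adjusted p = 1.54e-05), Col5a2 by 1.28 and Col6a2 by 1.32 on the log2 scale. Col5a3 rose from 50.95 ± 1.31 to 177 ± 14.5 CPM and was also called higher at 100 ng/ml (edgeR adjusted p = 0.00849).

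Of 17 receptors and growth factors found by symbol that are known to bind decorin, biglycan or asporin, 16 were tested. At 10 ng/ml 4 rose and 7 fell, beside 15.0% and 14.2% of all tested genes, with a median log2 change of -0.38. Tgfb1, the ligand that decorin and asporin bind, rose, with 50.1 ± 0.524 CPM untreated and 137 ± 5.19 CPM treated, a log2 change of 1.45 ± 0.07 (edgeR adjusted p = 6.89e-06), and its receptor gene Tgfbr2 fell from 848 ± 29.5 to 324 ± 8.63 CPM. Bmp4, a bone morphogenetic protein, fell, with 78.8 ± 4.46 CPM untreated and 5.24 ± 0.634 CPM treated, a log2 change of -3.91 ± 0.19 (edgeR adjusted p = 7.65e-06), and Ctgf, a matricellular protein, fell by 1.15 on the log2 scale. At 100 ng/ml 0 of the 16 were called by edgeR, beside 0.812% of all tested genes called higher and 0.305% lower. With 16 genes, a count of 0 lies near those shares.

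A list of 13 genes held proteases known to process these proteins or their partners, and Pcolce, which encodes a protease enhancer. Of the 13, 12 were tested. At 10 ng/ml 5 rose and 4 fell, beside 15.0% and 14.2% of all tested genes. Mmp9, a gelatinase, had 9 and 7 reads in the untreated libraries and 12613 and 16261 at 10 ng/ml. It passed the filter on low counts only through treated libraries, where it was higher. Htra1, a serine protease, rose from 24.4 ± 0.0334 to 83.7 ± 0.465 CPM. Mmp2 fell from 687 ± 8.77 to 323 ± 7.48 CPM and Adamts5, an aggrecanase, from 354 ± 8.93 to 127 ± 9.85 CPM.

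**Figure D5:**
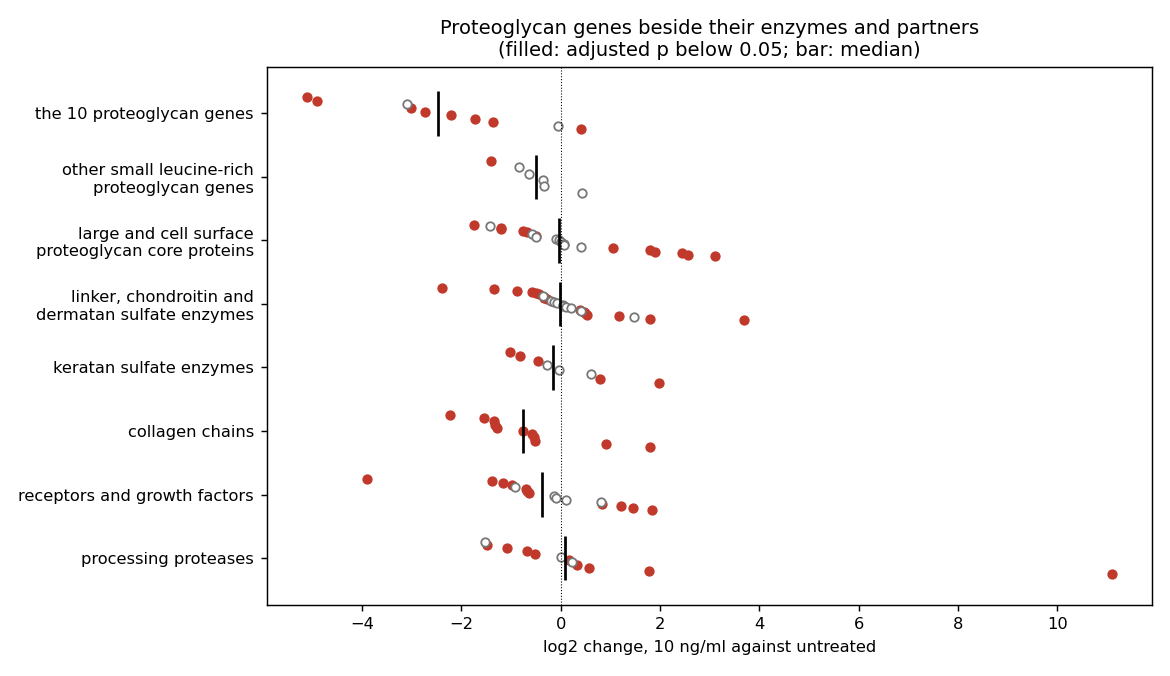
Log2 change at 10 ng/ml against untreated (horizontal axis) of every tested gene in the 10 proteoglycan genes and in 7 lists of related genes, with a bar at each median. The 10 genes have a median of -2.47 and the collagen chains one of -0.75. The receptors and growth factors have one of -0.38, with 4 called higher and 7 lower. The 6 tested other small leucine-rich proteoglycan genes have one of -0.49. Of these 1 was called lower and 0 higher, near the shares of all tested genes (14.2% and 15.0%). The lists of large and cell surface core proteins, sugar chain enzymes and proteases have medians from -0.16 to 0.08. Each of them has called genes on both sides.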

How the data were processed

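RNA sequencing libraries of 8 samples were grouped, and replicates numbered, from their titles. The authors deposited unnormalized read counts, 1 row per gene. Per the submitters' processing notes the build was mm10 and the tools included STAR and StringTie. The sources used here do not name the counting program, annotation or strand setting. Of 55335 rows, 3225 had no symbol (0.168% to 0.178% of counts) and were kept out of library sizes and tests.

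Genes passing filterByExpr (17360) were tested with edgeR 4.0.16 (R 4.3.3), TMM scaling, a quasi-likelihood F test on all 8 libraries with a mean per group, two-sided, adjusted by Benjamini-Hochberg within each of 6 comparisons at a threshold of 0.05. Standard errors are approximate, derived from each log2 change and its F value. The 2 libraries of each group were not copies of each other (chi-square divided by degrees of freedom, 24.5 to 29.8). Positions and lengths are from GENCODE M21 on mm10, matched by symbol; the principal-transcript length was chosen after seeing the data. In the likeness measure 0.5 CPM was added before taking log2, and genes needed a mean of at least 5 CPM.

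The members, gene lists, comparisons and alternatives were chosen with earlier results of these data known. Besides the members, up to 4 genes of each list with the smallest p at 10 ng/ml are named, with the 7 neighbours of the cluster; a few more were named after their values were seen. The alternatives were DESeq2 1.42.0, limma-voom (limma 3.58.1), other scalings and filters, only the groups compared, the replicate block, each library left out and, added later, both 100 ng/ml libraries left out.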

Additional observations from a re-analysis of the deposited data

How the results depend on the processing

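At 10 ng/ml the counts of 7 members lower and 1 higher, and at 30 ng/ml of 7 lower, were the same in all 17 alternatives, and so were the 8 calls between 100 and 10 ng/ml in all 16. Of the members called at 100 ng/ml (1), there were 0 with the replicate block, 3 with only the groups compared, 3 by limma-voom, 4 by DESeq2, and 0 to 3 with a library left out. Between 30 and 10 ng/ml (0) there were 3 by DESeq2 and 0 to 1 with a library left out, and between 100 and 30 ng/ml (8) there were 6 to 8. The replicate numbers did not pair the samples (correlations of deviations from -0.0663 to 0.033), and the block changed no call on a member other than that of Aspn at 100 ng/ml.

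The sign of changes that were not called flipped for Bgn at 30 ng/ml without TMM (0.013 on the log2 scale). With a library left out, Bgn ran from -0.093 to 0.043 between 100 and 30 ng/ml, from -0.049 to 0.087 between 100 and 10 ng/ml, from -0.061 to 0.025 at 30 ng/ml and from -0.11 to 0.026 at 100 ng/ml. Ecm2 ran from -0.18 to 0.33 and Omd from -3.85 to 3.73 between 30 and 10 ng/ml, and Omd from -2.18 to 0.51 at 100 ng/ml. Omd gave no value where a filter removed it.

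Over all genes, counts at 100 ng/ml were 91 to 237 with a library left out and 592 by DESeq2, against 194. Between 30 and 10 ng/ml (0) they were 3 to 62, 5 with only the groups compared, 3 with both 100 ng/ml libraries left out and 127 by DESeq2. With a library left out they were 3392 to 4839 at 10 ng/ml (5075), 2540 to 3831 at 30 ng/ml (4041), 2406 to 3545 between 100 and 10 ng/ml (3816) and 1380 to 2468 between 100 and 30 ng/ml (2637). The causes were not tested. No scaling moved the median of all genes by over 0.1. Depth limits Omd, which had at most 20 reads in a library, and 2 libraries per group limit every standard error.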
